A study of Mus musculus with 2 samples.

Results

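Hepatic stellate cells (HSCs) in the healthy liver carry a set of genes that marks them as quiescent, vitamin A-storing cells, and 10 such genes were followed here among the 32285 genes counted in each library. They were found by gene symbol and are Lhx2, Hand2, Tcf21, Reln, Colec11, Ecm1, Angptl6, Vipr1, Ngfr and Rgs5. All 10 had UMIs in both libraries. The data came from droplet-based 3′ RNA sequencing of single liver cells of male C57BL6 mice given Western diet (WD) for 16 weeks, with 1 library from WT liver, whose genotype label is CTRL, and 1 from N-LKO liver. In N-LKO mice, Cre recombinase under the hepatocyte-specific albumin promoter had deleted Nus1, the gene of the dolichol-synthesis subunit NgBR, so HSCs themselves were not the targeted cells. The N-LKO library is labelled liver plus tumor, the sample titles call the diet HFD in both groups, and the number of animals per library was not given. Genotype, tumor tissue and library therefore cannot be told apart, and no difference below has a replicate check or a p-value.

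Quiescent HSCs lie between hepatocytes and the sinusoidal endothelium, store retinyl esters and hold their identity through mesenchymal transcription factors. On injury they lose the stores, lower these genes and turn into matrix-producing myofibroblasts. Lhx2, a LIM-homeodomain factor, and Hand2 and Tcf21, both basic helix-loop-helix factors, belong to the regulators. Reln, Colec11, Ecm1 and Angptl6 encode secreted proteins, Vipr1 and Ngfr encode receptors, and Rgs5 encodes an inhibitor of G-protein signalling that is also common in pericytes.

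The 250 bases before the annotated starts of 4 members are shown because they cover the 3 transcription factors, whose families bind motifs searched here, and the collectin Colec11, which lay at the 2-fold line in the comparison of the libraries. They come from RefSeq (GRCm38.p6), 5′ to 3′ on the strand of the gene, with matches to 3 motifs in capitals. CANNTG is the core recognized by basic helix-loop-helix factors such as Hand2 and Tcf21, TAATTA is a homeodomain core and GATAA is the core recognized by GATA factors. Both strands were searched, and 1 run of capitals in Hand2 joins overlapping matches to TAATTA and GATAA. The regions were chr2:38339031-38339280 for Lhx2 (forward strand, the first of 2 listed starts), chr8:57320733-57320982 for Hand2 (forward), chr10:22820144-22820393 for Tcf21 (reverse) and chr12:28623331-28623580 for Colec11 (reverse).
Lhx2: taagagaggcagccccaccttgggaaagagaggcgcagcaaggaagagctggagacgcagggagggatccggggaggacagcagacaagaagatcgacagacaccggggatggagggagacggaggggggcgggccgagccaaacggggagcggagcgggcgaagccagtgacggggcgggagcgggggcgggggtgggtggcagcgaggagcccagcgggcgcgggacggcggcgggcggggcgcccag
Hand2: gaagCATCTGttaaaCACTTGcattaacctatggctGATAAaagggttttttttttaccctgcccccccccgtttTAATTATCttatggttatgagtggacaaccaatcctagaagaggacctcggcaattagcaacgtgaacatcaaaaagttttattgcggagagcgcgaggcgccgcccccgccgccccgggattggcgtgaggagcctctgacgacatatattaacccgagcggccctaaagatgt
Tcf21: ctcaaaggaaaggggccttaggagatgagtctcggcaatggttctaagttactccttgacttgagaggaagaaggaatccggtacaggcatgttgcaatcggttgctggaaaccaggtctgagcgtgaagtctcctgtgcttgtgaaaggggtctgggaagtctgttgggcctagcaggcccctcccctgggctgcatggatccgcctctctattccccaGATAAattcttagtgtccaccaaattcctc
Colec11: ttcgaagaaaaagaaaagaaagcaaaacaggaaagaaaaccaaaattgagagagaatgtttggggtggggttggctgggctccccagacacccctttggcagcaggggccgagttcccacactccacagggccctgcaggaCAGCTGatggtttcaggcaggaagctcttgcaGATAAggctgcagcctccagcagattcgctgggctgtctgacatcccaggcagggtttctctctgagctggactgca
GATAA occurred before the first start of 5 of the 10 members (Hand2, Tcf21, Colec11, Rgs5 and Angptl6), against 22.6% of all 32851 listed starts. CANNTG occurred in 6 of the 10, against 66.2%, and TAATTA in 1, Hand2, against 4.84%. The window of Lhx2 was 72.8% G and C and held none of the 3 motifs, against a median G and C content of 52.4% over all starts. A match is a run of letters and not a measured binding site.

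Clustering without the members gave 23 clusters, of which 1 scored highest for the 11 stellate markers (among them Lrat, Dcn, Des and Pdgfrb). It held 893 WT and 616 N-LKO cells, with a median of 1699 and 1568 UMIs per cell. All 11 markers were detected in both libraries, at a summed 7509 UMIs when scaled to 1000000 per class (CPM) in WT and 4699 CPM for N-LKO, while the highest other class reached 310.0 and 369 CPM. The label stellate-like rests on these markers. The cluster also carried transcripts of neighboring cells. All 8 endothelial markers were present, at a summed 3638 CPM in WT against 1765 CPM in N-LKO, or 51.9% and 36.9% of the level in endothelial-like cells. All 8 macrophage markers were present too, at 3181 and 2328 CPM, or 39.4% and 32.1% of the level in macrophage-like cells. The defining markers of mesothelial cells were at or near 0 (Msln, Upk3b and Lrrn4 had no UMI in either library), the smooth muscle list summed to 124 and 91.2 CPM, and the portal fibroblast list to 57.3 and 77.3 CPM. Hepatocyte markers, at 7692 and 6785 CPM, correspond to 24.7% of the UMIs as free RNA in WT and 35.4% in N-LKO, if all of them came from it. Mitochondrial genes took 10.5% of stellate-like UMIs in WT and 16.2% in N-LKO. The stellate-like cells of the libraries shared 0 barcodes, against 122 shared among 18434 WT and 19851 N-LKO kept cells. Nus1 in hepatocyte-like cells was at 73.0 CPM in WT against 39.2 CPM in N-LKO, although the assay reads the 3′ end, which the deletion leaves in place, so this level is no strict check of the labels.

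The members marked the stellate-like cells in both libraries. In WT, all 10 were at least 4 times as high there as in the highest of the 10 other named classes, against 2.30% of the 11202 genes with at least 5 CPM. In N-LKO the count was 9 of 10, against 1.99% of 11464 genes, and the exception was Rgs5. Lhx2 stood out most in WT, at 60.6 times the next class, and Vipr1 least, at 6.33 times. The next class for Vipr1 was erythroid-like, with only 3 UMIs in 51 WT cells (40.7 CPM, 8.39 to 119), so its factor and rank are poorly set. In WT endothelial-like cells Vipr1 was at 16.8 CPM (40 UMIs). In N-LKO the factor ran from 1.52 for Rgs5 and 7.21 for Ngfr to 41.3 for Colec11. T-like cells, which should lack these genes, gave the background. Tcf21 and Ngfr had no UMI among the 1547316 UMIs of WT T-like cells, where 3 counts, taken as the limit that a count of 0 allows, equal 1.94 CPM (exact Poisson upper bound 2.38 CPM). The highest member there was Reln, at 15.5 CPM in WT against 20.4 CPM in N-LKO. The map of levels by class shows a single bright column for stellate-like cells in WT and an additional bright field for Rgs5 in cholangiocyte-like cells of N-LKO.

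**Figure D1:**
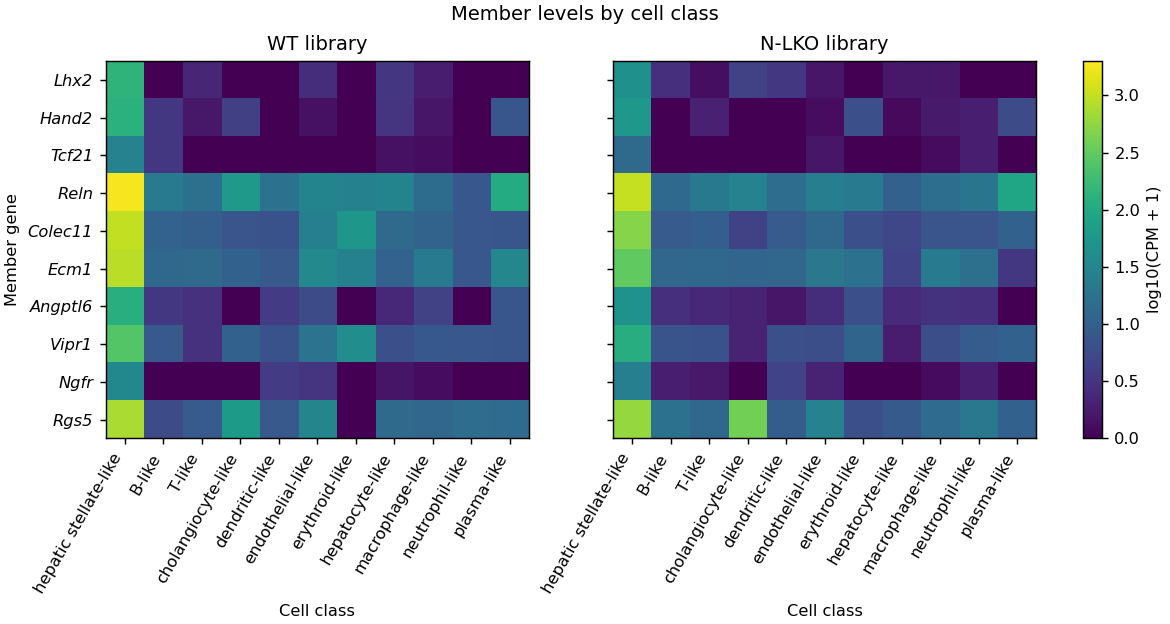
Each field gives the level of 1 member gene (rows) in 1 cell class (columns) as log10(CPM + 1), with the WT library on the left and the N-LKO library on the right. Stellate-like cells hold the highest level of every member in both libraries, and Rgs5 in N-LKO cholangiocyte-like cells, at 389.6 CPM, is the highest value outside them.

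Within stellate-like cells, all 10 members were lower in N-LKO than in WT, and for 9 of them the counting interval of the ratio lay below 0. The share of all genes that met either condition was not computed, so these 2 counts have no background. The summed members had 8527 UMIs in WT (5142 CPM) against 2958 in N-LKO (2724 CPM), which gave a log2 ratio of −0.92 (95% interval −0.98 to −0.86, counting error only). The median log2 ratio of the members was −1.11, against −0.07 over the 12097 genes with at least 5 CPM in either library. At least 2-fold lower were 6 of the 10 members (Lhx2, Hand2, Tcf21, Ecm1, Angptl6 and Vipr1), against 8.13% of all these genes, and 0 of 10 were at least 2-fold higher, against 10.2%. Of the 307 other genes that were at least 4 times enriched in stellate-like cells of either library, 13.4% were at least 2-fold lower, and their median was −0.17. Some of these genes were enriched only in N-LKO, where they are high, while all 10 members were enriched in WT. They are therefore not a like-for-like background for the members. The sizes of the members' ratios depended on which cells were taken as stellate. When cells were picked by stellate-marker UMIs without clustering (312 WT and 173 N-LKO cells), 0 of 10 members were at least 2-fold lower, against 10.4% of all genes, and their median was −0.29, against 0.01. These cells had at least 3 stellate-marker UMIs and more of them than of any other cell-type list. The marker sum was itself lower in all N-LKO stellate-like cells (−0.68), and its part in this setting was not tested. With at most 10% mitochondrial UMIs (444 and 65 cells), 1 of 10 was at least 2-fold lower, against 11.1% of all genes, and the median was −0.45, against 0.19. In both settings the count of members called was no higher than the share of all genes.

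**Figure D2:**
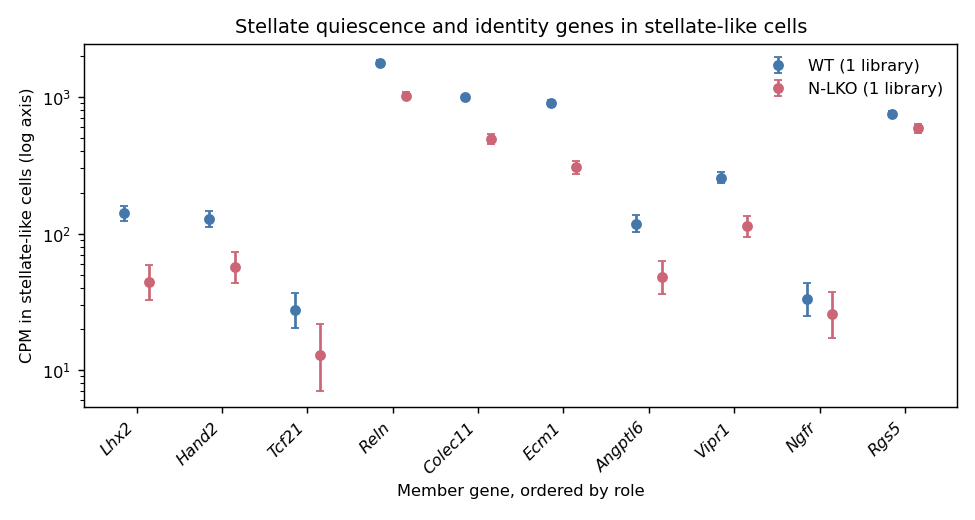
Level of each member in stellate-like cells of the WT and N-LKO libraries in CPM on a log axis, with exact Poisson 95% intervals that cover counting error only. All N-LKO points lie below the WT points, and the intervals overlap for Ngfr and, by a narrow margin, for Tcf21 (WT 20.3 to 37.0 CPM, N-LKO 7.05 to 21.6 CPM).

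Among the transcription factors, Lhx2 had the lowest ratio of all members. Lhx2 (ENSMUSG00000000247, chromosome 2, 38339281 to 38369733 in GRCm38 per GENCODE M21), whose loss in mice is known to activate HSCs, had 233 UMIs in WT (141 CPM, 123 to 159.8) against 48 in N-LKO (44.2 CPM, 32.6 to 58.6). The log2 ratio was −1.66 (−2.15 to −1.22), and it remained negative, between −2.51 and −0.75, under all 21 alternatives that gave a value. Those that only changed the filter on low values could not alter a member's ratio. In cells thinned to 1000 UMIs, Lhx2 was detected in 12.9% of WT cells (10.8 to 15.3) and 4.22% of N-LKO cells (2.78 to 6.12), against 0.0853% and 0.0519% of T-like cells. Hand2 (ENSMUSG00000038193, chromosome 8, 57320983 to 57324633), a factor of lateral mesoderm that marks HSCs, had 211 UMIs in WT (127 CPM, 111 to 146) against 62 in N-LKO (57.1 CPM, 43.8 to 73.2), which gave a log2 ratio of −1.15 (−1.59 to −0.74). Its detection was 12.7% in WT and 5.52% in N-LKO. Tcf21 (ENSMUSG00000045680, chromosome 10, 22817281 to 22820174), a mesenchymal factor known to restrain HSC activation, was the scarcest member, with 46 UMIs in WT (27.7 CPM, 20.3 to 37.0) against 14 in N-LKO (12.9 CPM, 7.05 to 21.6). Its log2 ratio of −1.07 carried a wide interval (−2.08 to −0.22). Hand2 and Tcf21 lay close to the 2-fold line, and the ratios of all 3 factors stood nearer 0 in cells picked by stellate-marker UMIs, at −0.83 for Lhx2, −0.20 for Hand2 and −0.29 for Tcf21.

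The secreted proteins Reln, Colec11 and Ecm1 were the 3 members with the most UMIs. Reln (ENSMUSG00000042453, chromosome 5, 21884454 to 22344702), an extracellular matrix glycoprotein best known from neuronal migration, had 2968 UMIs in WT (1789.8 CPM, 1726 to 1855) against 1115 in N-LKO (1027 CPM, 967 to 1089), which gave a log2 ratio of −0.80 (−0.90 to −0.70). It was detected in 78.4% of thinned WT cells and 58.0% of N-LKO cells, against 1.19% and 2.18% of T-like cells. Colec11 (ENSMUSG00000036655, chromosome 12, 28594173 to 28623377), a collectin that starts the lectin pathway of complement, had 1649 UMIs in WT (994 CPM, 947 to 1044) against 540 in N-LKO (497 CPM, 456 to 541). At −0.999 its log2 ratio (−1.14 to −0.86) lay just outside the 2-fold call, while Tcf21, at −1.070, was the nearest member inside it. Ecm1 (ENSMUSG00000028108, chromosome 3, 95734147 to 95739569), a matrix protein known to hold TGF-β in its latent form, had 1493 UMIs in WT (900.3 CPM, 855 to 947) against 333 in N-LKO (307 CPM, 275 to 341), which gave a log2 ratio of −1.55 (−1.73 to −1.38). Ecm1 was detected in 57.3% of WT and 20.1% of N-LKO cells, and its ratio was negative under all 21 alternatives (−2.41 to −0.78). Reln and Ecm1 are among the genes the study displayed from these same libraries, so their direction is not independent evidence. Angptl6 (ENSMUSG00000038742, chromosome 9, 20873808 to 20879727), an angiopoietin-like growth factor, had 196 UMIs in WT (118 CPM, 102 to 136) against 52 in N-LKO (47.9 CPM, 35.8 to 62.8), which gave a log2 ratio of −1.29 (−1.77 to −0.86). Without Reln the summed members gave −0.98 (−1.06 to −0.91), so the sum did not rest on the most abundant gene.

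The receptors differed from each other. Vipr1 (ENSMUSG00000032528, chromosome 9, 121642716 to 121672954), a receptor for vasoactive intestinal peptide, had 427 UMIs in WT (257 CPM, 234 to 283) against 123 in N-LKO (113 CPM, 94.1 to 135), which gave a log2 ratio of −1.18 (−1.49 to −0.89). Ngfr (ENSMUSG00000000120, chromosome 11, 95568818 to 95587735), the p75 neurotrophin receptor, had 55 UMIs in WT (33.2 CPM) against 28 in N-LKO (25.8 CPM). Its log2 ratio of −0.35 (−1.07 to 0.32) was not distinguishable from 0 at this depth, and it was positive under 2 alternatives. Rgs5 (ENSMUSG00000026678, chromosome 1, 169655501 to 169695813) had 1249 UMIs in WT (753 CPM, 712 to 796) against 643 in N-LKO (592 CPM, 547 to 639.7), which gave a log2 ratio of −0.35 (−0.49 to −0.21). Its direction was not stable, since it was higher in N-LKO at 0.62 in cells picked by stellate-marker UMIs and at 0.31 with at most 10% mitochondrial UMIs.

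The transcripts of neighboring cells moved with these results, so stellate-like droplets were divided by them, a division chosen after seeing the data. Droplets with at most 1 endothelial and at most 1 macrophage marker UMI among 1000 numbered 179 in WT and 262 in N-LKO. In them the summed members were at 7878 CPM in WT against 2627 CPM in N-LKO, which gave a log2 ratio of −1.58 (−1.69 to −1.48), and 9 of 10 members were at least 2-fold lower, against 18.8% of all genes. Lhx2 was at 187 and 46.7 CPM there, Colec11 at 1519 and 435 CPM, Ecm1 at 1614 and 304 CPM, and Rgs5 at 918 and 397 CPM. In the other 714 WT and 354 N-LKO droplets the summed members were at 4627 and 2787 CPM, which gave a log2 ratio of −0.73 (−0.81 to −0.66), and Rgs5 was at 722 and 719 CPM. All 10 ratios were below 0 in both kinds of droplet, but the interval of Ngfr included 0 in both, and those of Rgs5 (−0.17 to 0.15) and Tcf21 (−2.33 to 0.14) included it in the second. The first kind was drawn from different sub-clusters in each library. Of its 179 WT droplets, 147 lay in the almost wholly WT sub-cluster, while 198 of the 262 N-LKO droplets lay in the sub-cluster of mainly N-LKO cells and 60 in the one whose leading genes were not stellate markers and whose members summed to 851 CPM. The value of −1.58 therefore also compares different sub-clusters. The WT level in the first kind was higher than in the second for 9 of the 10 members, all but Ngfr.

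**Figure D3:**
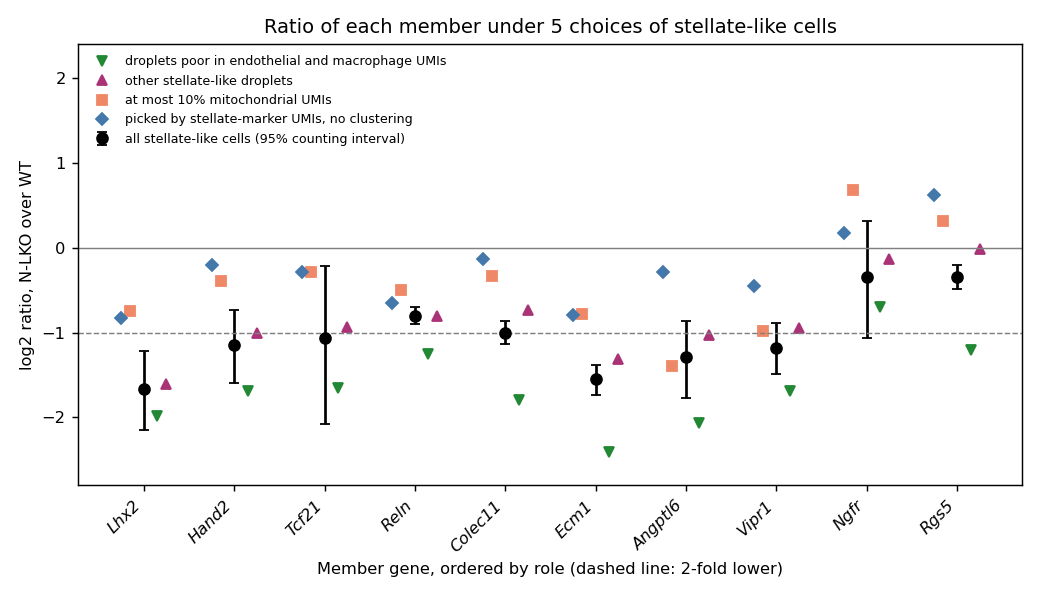
Log2 ratio of N-LKO over WT (vertical axis) for each member, with black points and 95% counting intervals for all stellate-like cells and other symbols for 4 other choices of cells, drawn without intervals. Droplets poor in endothelial and macrophage UMIs give the lowest ratio of every member, and Ngfr and Rgs5 lie above 0 where cells were picked by stellate-marker UMIs or by a 10% mitochondrial limit.

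The stellate markers that named the cluster were lower in N-LKO as well. Their sum had a log2 ratio of −0.68 (−0.72 to −0.63), with Lrat, the retinyl ester-forming enzyme, at −1.27 and Dcn, encoding the matrix protein decorin, at −0.88, while Pdgfrb, a growth factor receptor, was at 0.45. Per 100 stellate-marker UMIs there were 68.5 member UMIs in WT and 58.0 in N-LKO, which gave a log2 ratio of −0.24 (−0.30 to −0.18). Cells without any stellate-marker UMI among 1000 made up 1.23% of WT cells (11 of 893) and 16.2% of N-LKO cells (100 of 616). Cells with 4 or more such UMIs, 764 in WT and 300 in N-LKO, held a mean of 5.87 and 4.31 member UMIs per 1000. Fewer HSCs in the cluster and less of these transcripts per HSC cannot be told apart from these sums.

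Fewer of the members were detected together per N-LKO cell of the cluster, which also held more cells with few stellate-marker UMIs. At 1000 UMIs per cell, the median number of members with a UMI was 3.00 in WT and 1.00 in N-LKO. At least 3 members were detected in 578 of 893 WT cells, or 64.7% (61.5 to 67.9), and in 160 of 616 N-LKO cells, or 26.0% (22.6 to 29.6). No member was detected in 18 WT cells, or 2.02% (1.20 to 3.17), and in 140 N-LKO cells, or 22.7% (19.5 to 26.2). These shares varied with the stellate-marker UMIs of the cells. With 4 or more of them, 99.1% of WT cells (98.1 to 99.6) and 93.3% of N-LKO cells (89.9 to 95.9) held at least 1 member. With 1 to 3 the shares were 93.2% and 70.4%, and with none 72.7% (8 of 11 cells) and 44.0%. As background, 4.52% of WT T-like cells and 5.87% in N-LKO held at least 1 member, and at least 3 were seen in 0 of 1173 and 1 of 1926.

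**Figure D4:**
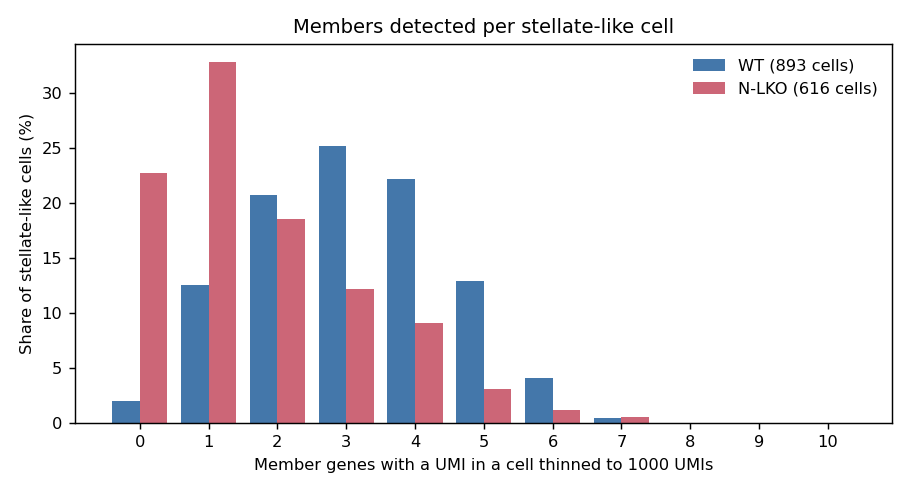
Share of stellate-like cells (vertical axis, percent) by the number of the 10 members with at least 1 UMI after thinning to 1000 UMIs (horizontal axis), for 893 WT and 616 N-LKO cells. The most common number was 3 in WT (25.2% of cells) and 1 in N-LKO (32.8%).

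Re-clustering of the stellate-like cells gave 4 sub-clusters that followed the libraries. The sub-cluster with macrophage transcripts (led by Clec4f and Cd5l) held 404 WT and 117 N-LKO cells, and in it the summed members were at 3894 and 2535 CPM, which gave a log2 ratio of −0.62 (−0.75 to −0.49). A sub-cluster of 419 N-LKO and 41 WT cells had summed members at 3285 and 4985 CPM, which gave a log2 ratio of −0.60 (−0.75 to −0.45). It was led by Igkc, Jchain and Igha, which also led the plasma-like cluster, followed by Igfbp5 and Col1a1. Another was almost wholly WT (447 and 5 cells), with summed members at 6603 CPM in WT. Chchd10, Grin2b and Hint2 led it, and Mup12, a leading gene of hepatocyte-like clusters, was also among its leading genes. The last was almost wholly N-LKO (75 and 1 cells). Its leading genes, such as Adk and Slc25a21, were not stellate markers, and its summed members were at 851 CPM, with Reln at 503 CPM and Lhx2 at 11.1 CPM. In its N-LKO cells stellate markers summed to 1559 CPM, against 4699 CPM in all N-LKO stellate-like cells. Hepatocyte markers summed to 9416 CPM, against 6785 CPM, but reached 9695 CPM in WT cells of the almost wholly WT sub-cluster. Whether these 75 cells are HSCs was not tested. Without this last sub-cluster the sum was at −0.73, the median at −0.96, and 4 of 10 members were at least 2-fold lower, against 8.33% of all genes. Without the mainly WT sub-cluster the sum was at −0.55, the median at −0.72, and 2 of 10 members were at least 2-fold lower, against 10.8%.

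The length of the gene on the genome also moved with the ratio. When the genes with at least 5 CPM were split into 5 equal groups by span, the median log2 ratio went from −0.50 in the shortest (median span 5.09 kb) to 0.32 in the longest (137 kb). Hand2, Tcf21, Ecm1 and Angptl6 belong to the shortest group, and their ratios relative to its median were −0.65, −0.57, −1.05 and −0.79. Reln, which spans 460.2 kb, was at −1.12 relative to its group, and Lhx2 was at −1.54. Colec11, Vipr1 and Rgs5 were at −0.88, −1.06 and −0.45, and Ngfr was at −0.09. All 10 members lay below the median of genes of like span, and the part of span in the ratios was not tested.

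Among the other named classes the highest member level in WT was that of Reln in plasma-like cells, at 105 CPM, and in N-LKO that of Rgs5 in cholangiocyte-like cells. In cholangiocyte-like cells Rgs5 had 19 UMIs in WT (61.3 CPM, 36.9 to 95.8) against 350 in N-LKO (389.6 CPM, 349.8 to 433), which gave a log2 ratio of 2.63 (2.0 to 3.42). It was detected in 4.02% of 199 WT cells (1.75 to 7.77) and 25.8% of 492 N-LKO cells (22.0 to 29.9), against 0.853% and 1.14% of T-like cells. The other members did not follow it there, with Colec11 at 6.45 and 3.34 CPM, Hand2 at 1 and 0 UMIs, and Tcf21 and Ngfr without a UMI in either library. Lower ratios were not confined to stellate-like cells. In hepatocyte-like cells Reln was at −1.63 (−2.12 to −1.20), Colec11 at −1.62 and Vipr1 at −2.49, and only Angptl6 was above 0 (0.15, −1.38 to 1.34). In endothelial-like cells Colec11 was at −1.08 and Vipr1 at −1.68, but Reln at −0.26 (−0.72 to 0.22). Reln in macrophage-like cells was at 0.07 (−0.42 to 0.59). The part of free RNA in these low levels was not tested. A mesothelial-like cluster of 34 WT and 79 N-LKO cells, too few in WT to count as a class, held summed members at 404 and 258 CPM. In the cholangiocyte-like cells, stellate markers summed to 171 and 188 CPM and smooth muscle markers to 3.23 and 2.23 CPM. Other lists differed together with Rgs5 there. Neutrophil markers summed to 29.0 and 268 CPM, T-cell markers to 19.4 and 105 CPM, portal fibroblast markers to 12.9 and 26.7 CPM (4 and 24 UMIs) and hepatocyte markers to 13964 and 7859 CPM, and their part in the Rgs5 levels was not tested. Epcam and Spp1, leading genes of this cluster, are also among the genes by which the study marked its carcinoma-enriched hepatocytes. Tumor cells were loaded for N-LKO only, so they cannot be told apart from bile duct cells here. In whole libraries, over all deposited barcodes, the summed members were at 207 CPM in WT against 130.2 CPM in N-LKO, which gave a log2 ratio of −0.67 (−0.71 to −0.64). Rgs5 was at 31.7 and 33.7 CPM there, and Lhx2 at 5.06 and 1.84 CPM. Such whole-library values also reflect how many stellate cells were loaded, and the stellate-like class was 10.5% of all WT cells that were not hepatocyte-like, against 3.47% in N-LKO.

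The members were set beside other lists of stellate genes, for which paired values give WT first. Of all 12097 genes measured in stellate-like cells, 8.13% were at least 2-fold lower in N-LKO and 10.2% at least 2-fold higher. These shares are the background for the count of every list. Of 21 measured other stellate genes (of 22 listed), 6 were at least 2-fold lower and 0 at least 2-fold higher, with a median of −0.80. Several of these also served to name the cluster. Dcn was at 3896 and 2121 CPM, and Cxcl12, a chemokine of mesenchymal cells, was at 947 and 434 CPM. Hhip, which binds hedgehog ligands, had 200 WT and 9 N-LKO UMIs, which gave a log2 ratio of −3.79 (−5.01 to −2.91). The ligands Bmp10 and Gdf2, both of the BMP family and secreted by HSCs, were at −1.63 and −1.34. Of 9 other transcription factors tied to quiescence, 2 were at least 2-fold lower and the median was −0.48. Foxf1, a forkhead factor of liver mesenchyme, had 92 WT and 7 N-LKO UMIs, which gave a log2 ratio of −3.01 (−4.46 to −2.00), and Irf1 was at −1.11. Gata4, at 209.9 and 185 CPM, Ets1, at 392 and 356 CPM, and Irf2, at 197 and 257 CPM, stayed within 2-fold, and all 3 were as high or higher in endothelial-like or B-like cells of WT. Of 5 quiescence genes displayed by the study, chosen on these libraries, all 5 were lower and 2 at least 2-fold lower (median −0.85), with Tgfbi at 516 and 287 CPM and Lrat at 563 and 234 CPM. Reln and Ecm1 belong to this list, as does Plvap, better known from endothelial cells, at 337 and 187 CPM here and at most 43.2 and 53.4 CPM in any other named class.

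Of 18 measured activation genes, 0 were at least 2-fold lower, against 8.13% of all genes, and 2 at least 2-fold higher, close to the 10.2% of all genes, with a median of 0.16. The collagens Col3a1, at 446 and 499 CPM, and Col1a2, at 274 and 310.3 CPM, had log2 ratios of 0.16 (0.00 to 0.33) and 0.18 (−0.03 to 0.38). Col1a1, a further collagen named after its values were seen, was at 95.3 and 172 CPM, or 0.85 (0.54 to 1.17). The direction of the collagens depended on the cells. In droplets poor in endothelial and macrophage UMIs, Col3a1 was at −0.30, Col1a2 at −0.21 and Col1a1 at 0.29, with intervals that reached 0. In the other stellate-like droplets they were at 0.25, 0.34 and 0.90, and in the sub-cluster with macrophage transcripts at 0.37, 0.51 and 1.59, with intervals above 0. In the mainly N-LKO sub-cluster (419 cells, with 41 from WT) they were at −1.58, −1.78 and −1.89. Its 41 WT cells held Col1a1 at 821 CPM, against 95.3 CPM in all WT stellate-like cells. Fn1, encoding fibronectin, was at 235 and 459 CPM. Lox, a collagen cross-linking enzyme, had 3 and 11 UMIs, which gave a log2 ratio of 2.33 (0.56 to 4.97), and Spp1, encoding osteopontin, was at 24.7 and 78.3 CPM but reached 6115 and 5557 CPM in cholangiocyte-like cells. Of the 5 activation genes displayed by the study, again chosen on these libraries, 4 were at least 2-fold higher. They were Sntg1, at 852 and 1739 CPM, Alcam, at 160.4 and 608 CPM, Egfr, at 105 and 442 CPM, and Il1r1, at 136 and 328 CPM. Alcam was at 1794 CPM in WT cholangiocyte-like cells and Egfr at 488 CPM in WT hepatocyte-like cells.

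HSCs differ along the lobule, and Ngfr is a portal-side gene. Of 5 measured portal-side genes (of 6), 1 was at least 2-fold lower (median −0.35), against 8.13% of all genes. Igfbp3, an IGF-binding protein, was at 295 and 113 CPM, the cytokine gene Il34 at 94.1 and 133 CPM, and Tagln at 86.8 and 60.8 CPM. Of 6 central-side genes, 3 were at least 2-fold lower (median −0.66). Rspo3, a Wnt enhancer, was at 435 and 167 CPM, Sox4 at 115 and 56.2 CPM, and Spon2 at 28.3 and 7.37 CPM, while Adamtsl2, at 34.4 and 59.9 CPM, was higher.

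Partners of the members were read from further lists, against 8.13% of all genes at least 2-fold lower and 10.2% at least 2-fold higher. In lists this short, counts of 1 or 2 genes cannot be set apart from these shares. None of the 3 reelin receptor and adaptor genes (Vldlr, Lrp8 and Dab1) passed 5 CPM in stellate-like cells. Of 4 collectin partners, Masp1, the protease that acts with collectins, was at 657 and 413 CPM and Colec10 at 515 and 296 CPM, while Colec12 was at least 2-fold higher, at 49.4 and 135 CPM, and the median was −0.14. Of 6 measured neurotrophin genes (of 8), 2 were at least 2-fold higher and the median was 0.57. Ntf3 was at 44.0 and 66.3 CPM and Sort1 at 12.1 and 12.9 CPM. Bdnf (6 and 13 UMIs) and Ntrk2 (11 and 18 UMIs) were the 2 at least 2-fold higher. Of the VIP and PACAP genes, Adcyap1r1 was measured in stellate-like cells, at 12.1 and 12.9 CPM, and Vip and Adcyap1 had no UMI there. Of 9 measured TGF-β latency genes (of 10), 1 was at least 2-fold lower and 1 higher (median 0.32). Lrrc32, which tethers latent TGF-β, was at 80.2 and 30.4 CPM, Itgb8 at 8.44 and 19.3 CPM, and Itgav, Ltbp1 and Tgfb1 had intervals that included 0. Of 7 measured other RGS genes (of 8), 0 were at least 2-fold lower and 1, Rgs16 (14 and 23 UMIs), was higher (median −0.37). Rgs1 and Rgs2 were at 158 and 92.1 CPM and at 115 and 91.2 CPM but higher in macrophage-like cells, and Rgs4 was at 45.2 and 27.6 CPM. Of 4 measured other angiopoietin-like genes (of 6), none differed 2-fold (median 0.28), with Angptl2 at 90.5 and 61.7 CPM and Angptl4 at 14.5 and 28.5 CPM. Of 11 genes that respond to cell isolation, 2 were at least 2-fold lower, Fos at 228 and 109.6 CPM and Jun at 221 and 109 CPM, and the median was −0.58, with Junb at 250.3 and 141 CPM and Egr1 at 209 and 176 CPM. The part of isolation in the members' ratios was not tested.

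The 10 genes whose levels over 11 named classes in both libraries (22 points, which share libraries and depth) were most like the members' mean were Gpat2, Pcdh18, Rbm46, Heyl, Dcn, Srpx2, Igsf10, Gdf10, Nckap5 and Gdf2. Their Pearson r on log2(CPM + 1) ran from 0.9309 to 0.9825, as a description without a test. In stellate-like cells 2 of these were at least 2-fold lower in N-LKO, against 8.13% of all genes. They were Pcdh18 at 22.9 and 9.21 CPM and Gdf2 at 155 and 60.8 CPM. Rbm46, at 16.9 and 22.1 CPM, was the only gene of the 10 that was higher in N-LKO.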

How the data were processed

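Collagenase-released hepatocytes and nonparenchymal cells, plus tumor cells for N-LKO, went into 10x Genomics 3′ libraries. The deposited values are UMI counts (whole numbers, not normalized) that the authors made with Cell Ranger 7.1.0. The labels name mm9, yet 32158 of 32285 gene IDs are in GENCODE M21 (GRCm38), which gave the coordinates. The files held 85522287 UMIs over 100171 WT barcodes and 87575064 over 90147 N-LKO barcodes.

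Barcodes with at least 1000 UMIs, 400 genes, at most 30% mitochondrial UMIs and a Scrublet score (scanpy 1.11.5) under 0.25 were kept, 18434 in WT and 19851 in N-LKO, and clustered on 30 principal components of 2000 variable genes (leidenalg 0.10.2, resolution 0.3, no integration). Clusters took the name of the best marker list (score of at least 0.2, 3 raised markers) and were called mixed where an unrelated list passed 0.6 of that score. The stellate cluster was kept although endothelial markers passed this share. Both that exception and the naming thresholds were chosen once the data had been seen. Differences from the study may come from rebuilt names.

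UMIs were summed per class. CPM (not per length in a 3′ assay), shares and ratios carry exact Poisson, Clopper-Pearson and exact conditional binomial 95% intervals, which cover counting error only. For each log2 ratio of N-LKO to WT, 0.5 UMI was added to both sums, and a gene counted as measured from 5 CPM in either library. Detection was read after thinning each cell to 1000 UMIs. The computation of the ratio and its interval was checked on simulated Poisson counts with known folds. These held no variation between libraries or in the choice of cells, so the check covers counting error only. The members and lists were chosen with earlier results of these data known. Named were the members, the 3 genes of each list with the highest mean CPM plus up to 3 with the largest ratio of at least 2-fold, the 10 genes most like the members, and Nus1. Marker genes and leading genes of sub-clusters were named after their values were seen. A few genes that this rule names are not reported here.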

Additional observations from a re-analysis of the deposited data

Results flagged for a closer look

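Rgs5 was lower in N-LKO stellate-like cells, at a log2 ratio of −0.35, and higher in N-LKO cholangiocyte-like cells, at 2.63, so the ratios had opposite signs in these classes. The sign in stellate-like cells was not stable, at 0.62 in cells picked by stellate-marker UMIs, 0.31 at a 10% mitochondrial limit and −0.01 in droplets with 2 or more endothelial or macrophage UMIs. The difference between the classes was not tested, since each group had 1 library. Tumor cells, loaded for N-LKO only, cannot be told apart within the cholangiocyte-like class. The level in N-LKO cholangiocyte-like cells, 389.6 CPM from 350 UMIs, compares with 27.1 CPM in N-LKO barcodes under 500 UMIs, and smooth muscle markers summed to 2.23 CPM and neutrophil markers to 268 CPM in the same cells.

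Barcodes that the filters left out held 38.9% of all member UMIs in WT and 53.4% in N-LKO, a signal that the comparisons of stellate-like cells did not use. For single members the share ran from 31.4% (Hand2) to 48.0% (Angptl6) in WT and up to 57.1% (Tcf21 and Lhx2) in N-LKO. In left-out barcodes under 500 UMIs the members were not all lower in N-LKO. Their levels follow in CPM, WT first. Higher in N-LKO were Reln (27.6, 34.8), Colec11 (15.6, 16.1), Ecm1 (16.8, 17.9), Rgs5 (14.3, 27.1), Hand2 (2.69, 2.95) and Vipr1 (6.61, 7.21). Lower were Lhx2 (1.96, 1.48), Angptl6 (3.43, 2.46), Tcf21 (1.47, 0.984) and Ngfr (1.10, 0.984). These levels carry no intervals, and their differences were not tested.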

How the results depend on the processing

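Of 21 alternatives with a value, 19 were planned and 2 were added after seeing the data. The members' sum and median stayed below 0 in all 21. The settings without a filter on low values and with a filter of 20 CPM could not change the sum or a member's ratio. With a minimum of 2000 UMIs no cluster was named stellate-like, so that alternative gave no value. No paired analysis was possible because each group has 1 library. The log2 ratio of the sum, −0.92 as reported, was −1.11 with a minimum of 500 UMIs, −1.06 without a mitochondrial limit, −1.03 without doublet removal, −0.85 relative to the median of all genes, −0.82 without mitochondrial genes in the total, and −1.21 and −0.73 without the first and the last sub-cluster. With free RNA subtracted it was −0.72, and 3 members were at least 2-fold lower, against 7.96% of all genes. In droplets with 2 or more endothelial or macrophage UMIs it was −0.73. Sum and median were −0.39 and −0.45 at a 10% mitochondrial limit (1 member at least 2-fold lower, against 11.1% of all genes). At a doublet score limit of 0.15 they were −0.63 and −0.76 (2 members, against 10.8%). Cells picked by stellate-marker UMIs gave −0.28 and −0.29 (0 members, against 10.4%). Sum and median were −1.47 and −1.67 without the mainly N-LKO sub-cluster of 419 cells. They were −0.55 and −0.72 without the mainly WT sub-cluster (2 members, against 10.8%), and −1.58 and −1.69 in droplets poor in endothelial and macrophage UMIs. Rgs5 reversed to 0.31 and 0.62, and Ngfr to 0.68 and 0.17, at the 10% mitochondrial limit and for the marker-picked cells. The cause of these shifts was not tested. The members enriched in stellate-like cells numbered 9 to 10 in WT and 7 to 9 in N-LKO. Depth limits Tcf21 and Ngfr most, with 14 and 28 UMIs in N-LKO.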
